A study of Mus musculus with 35 samples.

Results

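The p65 subunit of NF-κB was mapped by chromatin immunoprecipitation and sequencing (ChIP-seq) in 3 libraries that carry the letter X in their titles. They were made from bone marrow macrophages of female wild-type C57BL/6 mice aged 8 to 12 weeks. One library came from unstimulated cells (0 min), 1 from cells given lipopolysaccharide (LPS) for 60 min and 1 from cells given LPS for 120 min. LPS is a glycolipid from the envelope of Gram-negative bacteria. The labels name no dose. The members are the genomic regions that the authors listed for these 3 libraries, 1851 of the 250088 regions listed for all 35 libraries of the series. Regions up to 10 kb wide (1147 of the 1851) were joined across the 3 lists where they overlapped, which gave 730 joined regions, and wider regions are described separately. A joined region "listed at" a time overlapped at least 1 region of that library's list by 1 bp or more. From the same kind of cells the series also holds lists for RNA polymerase II (Pol II), the p50 subunit, the stress-induced factor ATF3, acetylated histone H4 (H4ac) and trimethylated lysine 27 of histone H3 (H3K27me3), and 2 further p65 lists with other letters. The p50 lists are of unstimulated cells and of 60 min of LPS only. The H3K27me3 lists are of unstimulated cells, of 120, 240 and 480 min of LPS, and of 60 min of LPS with a 7 h delay.

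NF-κB is a family of dimeric transcription factors that drives much of the inflammatory response of macrophages. In resting cells p65, also called RelA, is largely held in the cytoplasm by inhibitor proteins of the IκB family. LPS is sensed by Toll-like receptor signalling, which leads to the destruction of IκB, and p65 then enters the nucleus and binds κB sites, often paired with p50. The p65 subunit carries a domain that activates transcription and p50 does not. The comparison over time shows which p65 regions were listed before LPS, which were listed after it, and whether those of the earlier time were still listed at the later time.

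There was 1 library per time, so no difference between times has a replicate check and none was tested. Nothing in the labels says whether the 3 libraries came from separate mice or cultures. The titles open with the numbers 20091124 (0 min), 20090821 (60 min) and 20091006 (120 min), which read as dates. LPS time and date cannot be told apart. The lists hold no read counts, so depth is unknown, and a region that is not listed cannot be called unbound. Intervals on shares are 95% Wilson intervals and cover counting error over regions only. Positions are on mouse build mm9. An mm9 gene annotation was not used here, so regions are named by position, no gene is assigned to them, and the macrophage label was not checked against marker genes.

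Libraries of the same target and time but another letter differed from the X libraries. Of the 60 min X regions, 5 of 474 (1.05%, interval 0.451 to 2.45%) touched the p65 list with letter A at 60 min. Of the 120 min X regions, 53 of 440 (12.0%, 9.33 to 15.4%) touched the p65 list with letter C at 120 min. Without the chromosome 11 cluster described below, it was 19 of 343 (5.54%, 3.57 to 8.49%). The A and C lists, although from different times, shared more with each other: 543 of 2206 A regions (24.6%, 22.9 to 26.5%) touched a C region. The antibody's vendor and catalogue number are the same in the labels of all 5 p65 libraries. The results below therefore describe the X libraries and were not carried over to the other p65 lists.

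The LPS lists were longer than the unstimulated list and their regions were wider. Of regions up to 10 kb there were 209 at 0 min, 487 at 60 min and 451 at 120 min. They covered 74.8, 310 and 348 kb, with median widths of 150, 210 and 210 bp. Both LPS libraries were thus above the unstimulated one in number and covered length, and they were close to each other. Regions of 1 to 10 kb numbered 12, 61 and 69 at the 3 times. Narrow and wide regions of a list could overlap: 80 of 209 small regions at 0 min (38.3%), 260 of 487 at 60 min (53.4%) and 234 of 451 at 120 min (51.9%) overlapped a listed region wider than 10 kb.

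**Figure D1:**
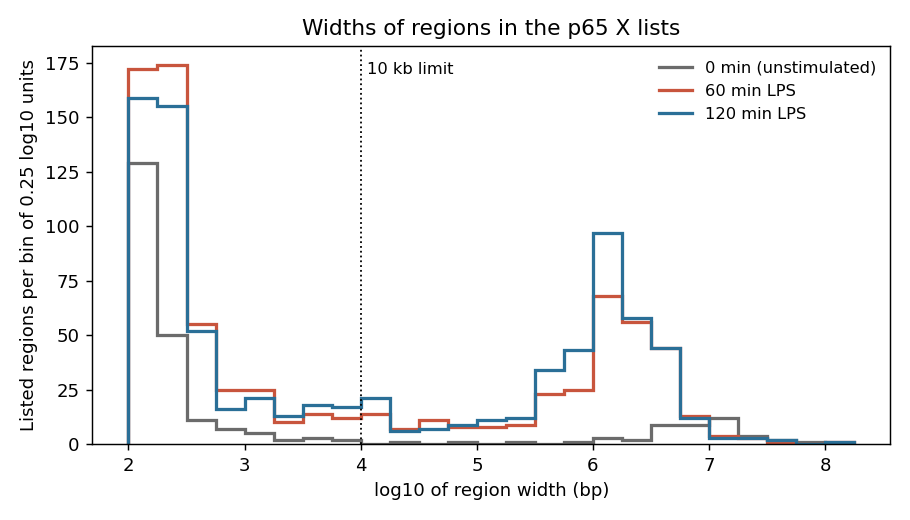
Number of listed regions (y axis) by width (x axis, log10 of bp, bins of 0.25) in the 3 p65 X lists, with every width included. Each list has narrow regions below the 10 kb limit (209, 487 and 451 at 0, 60 and 120 min) and a second set of very wide ones (46, 295 and 363 above the limit).

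One stretch of chromosome 11 held an unequal share of the regions. Between 3023731 and 3099700, close to the start of the assembled chromosome, lay 113 of the 730 joined regions (15.5%). It held 18 of 209 regions at 0 min (8.61%), 42 of 487 at 60 min (8.62%) and 97 of 451 at 120 min (21.5%). The 120 min library was thus apart from the other 2 in this stretch, which is called the chromosome 11 cluster here. In the other 32 lists of the series, regions starting before position 3200000 of chromosome 11 made up 0 to 6.47% of regions up to 10 kb. The median was 0.163%, and 31 of the 32 lists had regions there. The same limit defined the cluster in the p65 X lists. Counts without the cluster are given beside the results that it touches, over the 617 joined regions outside it.

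The commonest states were regions listed at both LPS times but not before, and regions listed at 60 min alone. Relative to the unstimulated list, 371 of 730 joined regions (50.8%) were gained at 60 min, meaning listed then and not at 0 min, and 106 (14.5%) were lost, meaning listed at 0 min and not at 60 min. At 120 min 342 (46.8%) were gained and 108 (14.8%) lost. Both comparisons share the single unstimulated list. The balance of gained against lost regions depends on the lengths of the lists, and between lists of equal length the 2 counts have to be nearly equal. With each list reduced to its 209 highest-scored regions, 144 were gained and 140 lost at 60 min, and 147 gained and 143 lost at 120 min.

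By pattern, 186 joined regions were listed at 60 and 120 min and not at 0 min, 185 at 60 min alone and 156 at 120 min alone. A further 83 were listed at 0 min alone, 25 at 0 and 60 min and 23 at 0 and 120 min. All 3 lists held 72 regions (9.86%). The chromosome 11 cluster supplied 57 of the 156 regions listed at 120 min alone (36.5%). Outside it, 161 regions were listed at 60 and 120 min, 172 at 60 min alone, 99 at 120 min alone, 79 at 0 min alone and 69 at all 3 times. Without the cluster 333 of 617 (54.0%) were gained and 92 (14.9%) lost at 60 min, against 260 (42.1%) and 103 (16.7%) at 120 min.

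**Figure D2:**
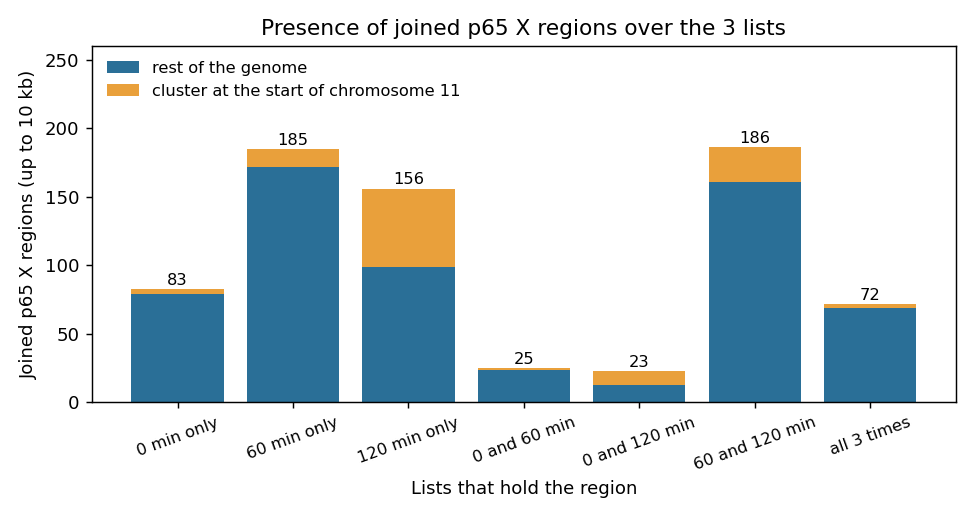
Number of joined p65 X regions up to 10 kb (y axis, from 0) by the lists that held them (x axis), split into the chromosome 11 cluster (orange) and the rest of the genome (blue). The bar for 120 min alone has the largest orange part, 57 of 156 regions.

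The 2 LPS lists shared more with each other than either did with the unstimulated list. Of joined regions listed at 60 min, 258 of 468 (55.1%, 50.6 to 59.6%) were still listed at 120 min. Of those listed at 120 min, 258 of 437 (interval 54.4 to 63.6%) had been listed at 60 min, and outside the cluster 230 of 342 (67.3%, 62.1 to 72.0%). Of those listed before LPS, 97 of 203 (47.8%, 41.0 to 54.6%) were listed at 60 min and 95 of 203 (46.8%, 40.1 to 53.7%) at 120 min. Outside the cluster these were 93 of 185 (50.3%, 43.1 to 57.4%) and 82 of 185 (44.3%, 37.4 to 51.5%), with overlapping intervals. In base pairs up to 10 kb, the intersection divided by the union was 0.258 for 60 and 120 min, 0.0839 for 0 and 60 min and 0.0654 for 0 and 120 min. These shares depend on list length, since a longer list can hold more of a shorter one.

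Regions with high scores recurred more often than those with low scores. The score is the authors' own value for each region and was used here only to rank regions within a list. Outside the cluster, the joined regions listed at each time were divided by score into 4 bins of nearly equal size. A joined region took the best score among the regions of that list that it overlapped, so spanning several of them can raise its score. In the highest bin at 60 min 94 of 107 (87.9%, 80.3 to 92.8%) were also listed at 120 min, and in the lowest 28 of 107 (26.2%, 18.8 to 35.2%). The same order held for regions listed at 120 min: 81 of 86 in the highest bin (94.2%, 87.1 to 97.5%) and 41 of 86 in the lowest (47.7%, 37.4 to 58.1%) were listed at 60 min. Of the highest bin at 0 min, 40 of 46 (87.0%, 74.3 to 93.9%) were listed at 60 min and 33 of 46 (71.7%, 57.5 to 82.7%) at 120 min. The highest-scored regions of the unstimulated list were thus mostly present after LPS as well, while the highest-scored regions after LPS were less often present before it: 48 of 107 (44.9%, 35.8 to 54.3%) at 60 min and 38 of 86 (44.2%, 34.2 to 54.7%) at 120 min. That last comparison is between lists of unequal length and was not tested.

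**Figure D3:**
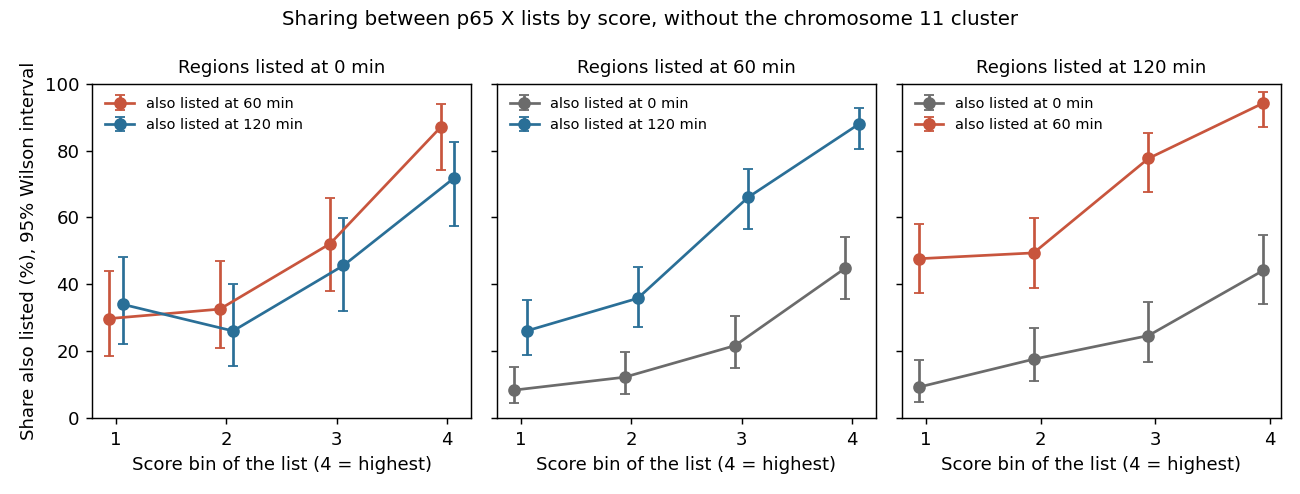
Share of joined regions listed at 1 time that were also listed at another time (y axis, percent, points with 95% Wilson intervals) by score bin (x axis, 4 is the highest), without the chromosome 11 cluster. In each panel the share in bin 4 is above that in bin 1, for example 87.9% against 26.2% for 60 min regions at 120 min.

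Regions of all 3 times had the highest median score at both LPS times, followed by those of 60 and 120 min. At 60 min the median score was 1.75 for regions listed at all 3 times, 1.01 for those listed at 60 and 120 min, 0.652 for those listed at 0 and 60 min and 0.395 for those listed at 60 min alone. At 120 min it was 1.54 for regions of all 3 times, 0.992 for those of 60 and 120 min, 0.488 for those of 120 min alone and 0.372 for those of 0 and 120 min. Regions listed at 0 min alone had a median score of 0.327 and a median width of 130 bp, the narrowest of the 7 patterns. Among the 258 regions listed at both LPS times, Spearman's rho between their 2 scores was 0.505 across regions, and 0.566 among the 230 outside the cluster. It was 0.364 for the 97 regions of 0 and 60 min and 0.494 for the 95 of 0 and 120 min. These are descriptions across regions, which are not replicates.

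From the regions listed at all 3 times, the 5 with the best mean rank are given, so they rank high in the lists by choice. A region at chromosome 4, 126354691 to 126354940, ranked 6 of 209 before LPS with a score of 2.47. It ranked 4 of 487 at 60 min (score 3.69) and first of 451 at 120 min (score 4.34). Another, at chromosome 5, 69946631 to 69948190, went the other way at the later time: it was first at 0 min (score 3.57), ranked 3 at 60 min (3.90) and 46 at 120 min (2.09). The one at chromosome 13, 46822411 to 46823670, ranked 3, 1 and 18, that at chromosome 6, 91390751 to 91391060, ranked 14, 6 and 4, and that at chromosome 4, 138935211 to 138936530, ranked 2, 10 and 30. All 5 overlapped H4ac regions in all 6 H4ac lists of 0, 60 and 120 min, and none touched a p50 region in any of the 7 p50 lists. These 5 thus lay in chromatin listed as acetylated at each of the 3 times.

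Among the regions listed at 60 and 120 min and not before, the 5 named here were chosen for the best mean rank over both times, so they rank high at each by choice. First among them, the region at chromosome 6, 131243101 to 131243250, ranked 12 at 60 min (score 3.12) and 14 at 120 min (2.92). The one at chromosome 7, 31449851 to 31450110, ranked 14 and 13, that at chromosome 7, 126864161 to 126864350, ranked 24 and 7, that at chromosome 6, 113478831 to 113482070, ranked 28 and 22, and that at chromosome 13, 100873891 to 100874070, ranked 30 and 23. The first 4 of these touched all 6 H4ac lists, the last touched 1 of 2 at 0 min, 1 of 2 at 60 min and 0 of 2 at 120 min, and none touched p50. Their acetylated state was thus listed before p65 was, for 4 of the 5.

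Regions listed at 1 time alone ranked lower, and their best members differed in the chromatin they lay in. At 60 min alone the best-ranked was at chromosome 5, 77334341 to 77334600 (rank 53, score 2.15), and 4 of the 5 best touched all 6 H4ac lists. At 120 min alone 3 of the 5 best lay in the chromosome 11 cluster, and 4 of the 5 touched no H4ac list. Outside the cluster the best of these was at chromosome 4, 129636861 to 129637130 (rank 59, score 1.90), which touched all 4 p50 lists of LPS-treated cells, no p50 list of unstimulated cells and all 5 H3K27me3 lists. At 0 min alone the best-ranked was at chromosome 8, 24205961 to 24206130 (rank 19, score 1.67), which touched no H4ac or Pol II list of 0, 60 or 120 min. Those ranked next did touch both unstimulated H4ac lists. They were at chromosome 7, 16895331 to 16895450, chromosome 14, 69955161 to 69955310, and chromosome 7, 135535851 to 135535950. The last of the 5 best, at chromosome 16, 91532561 to 91534910, touched no H4ac list.

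Acetylation of histone H4 marks open, active chromatin, and most p65 X regions at 60 min carried it. Both H4ac lists of the same time were touched by 81 of 204 regions at 0 min (39.7%, 33.2 to 46.6%), 275 of 474 at 60 min (58.0%, 53.5 to 62.4%) and 202 of 440 at 120 min (45.9%, 41.3 to 50.6%). Without the cluster the shares were 43.0, 62.5 and 57.1%. The 120 min share thus moved closer to that of 60 min once the cluster was set aside. The p65 lists of the other letters differed. Of A regions at 60 min, 20 of 2206 (0.907%, 0.588 to 1.40%) touched both H4ac lists of that time. Of C regions at 120 min it was 68 of 2040 (3.33%, 2.64 to 4.20%). The H4ac shares above thus describe the X lists only. For scale, a region of the 60 min median width would touch the first of the H4ac lists of 60 min (letter A) from 1.51% of positions on the chromosomes, whereas 70.5% of the 60 min p65 X regions touched it. With H4ac and p65 regions both limited to 1 kb, the shares were 5.64, 14.0 and 10.3%, so these shares rest largely on regions of 1 to 10 kb.

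Regions gained after LPS lay mainly where H4ac was already listed before LPS. Outside the cluster, 220 of the 333 regions gained at 60 min (66.1%, 60.8 to 70.9%) touched both H4ac lists of unstimulated cells. A change of H4ac was about as rare there as over all joined regions. It was listed as gained at 7 of 333 (2.10%, 1.02 to 4.27%), which touched both H4ac lists of 60 min and neither of 0 min, and 11 (3.30%, 1.85 to 5.82%) showed the reverse. Over all 617 regions outside the cluster these numbers were 17 (2.76%) and 18 (2.92%). Of the 260 regions gained at 120 min, 159 (61.2%, 55.1 to 66.9%) touched both unstimulated H4ac lists, 8 (3.08%) had H4ac in both lists of 120 min and neither of 0 min, and 12 (4.62%) showed the reverse, against 11 (1.78%) and 24 (3.89%) of the 617. Both unstimulated H4ac lists were touched by 354 of the 617 (57.4%, 53.4 to 61.2%).

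The patterns differed in how much acetylated chromatin they held before LPS. Outside the cluster both unstimulated H4ac lists were touched by 49 of 69 regions of all 3 times (71.0%, 59.4 to 80.4%), 112 of 161 of 60 and 120 min (69.6%, 62.1 to 76.1%) and 108 of 172 of 60 min alone (62.8%, 55.4 to 69.7%). The shares were 47 of 99 at 120 min alone (47.5%, 37.9 to 57.2%) and 24 of 79 at 0 min alone (30.4%, 21.3 to 41.2%). In the 2 smallest patterns they were 11 of 24 at 0 and 60 min (45.8%, 27.9 to 64.9%) and 3 of 13 at 0 and 120 min (23.1%, 8.18 to 50.3%). Among the 5 larger patterns, regions of 0 min alone thus had the lowest share, even in the cells in which they were listed. No H4ac list of 0, 60 or 120 min was touched by 42 of the 79 (53.2%, 42.3 to 63.8%), against 2 of 69 of all 3 times (2.90%, 0.799 to 9.97%). Regions of 0 min alone were also narrower and lower scored, as given above, and whether width or score accounts for the difference was not tested.

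Pol II, the enzyme that transcribes protein-coding genes, was met at fewer p65 X regions than H4ac when regions up to 10 kb were used. The Pol II list of letter A at the same time was touched by 56 of 204 regions at 0 min (27.5%, 21.8 to 33.9%), 136 of 474 at 60 min (28.7%, 24.8 to 32.9%) and 74 of 440 at 120 min (16.8%, 13.6 to 20.6%). The Pol II lists themselves held 5093, 3507 and 2834 regions up to 10 kb, so their own lengths fell in this order as well. With the unstimulated Pol II list used throughout, the shares were 27.5, 36.3 and 28.0%. Outside the cluster it was touched by 130 of the 333 regions gained at 60 min (39.0%, 34.0 to 44.4%) and 17 of the 79 listed at 0 min alone (21.5%, 13.9 to 31.8%). With the cluster included, it was touched by 130 of the 371 regions gained at 60 min (35.0%, 30.4 to 40.0%). Over all 730 joined regions it was 215 (29.5%, 26.3 to 32.9%), and these 2 intervals overlap. The Pol II and H4ac lists differ in size, so their shares alone do not rank the targets. A region of the 60 min median width would touch the letter A lists of 60 min from 0.309 and 1.51% of positions. With regions up to 1 kb on both lists, Pol II was at 21.03, 15.2 and 6.33% at 0, 60 and 120 min. H4ac was then at 5.64, 14.0 and 10.3%. The H4ac shares require both H4ac lists of the time and the Pol II shares only 1 list, so the rules differ. On these values the order was reversed at 0 and 60 min but not at 120 min. At 60 min the shares were close, 15.2 against 14.0%.

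**Figure D4:**
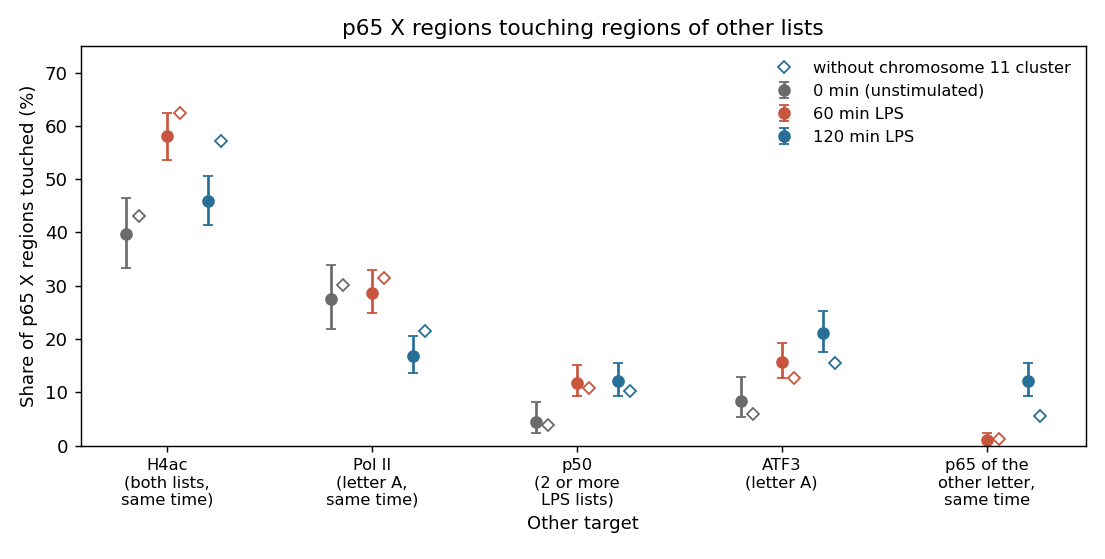
Share of p65 X regions (y axis, percent) that touched regions of another target (x axis) at 0, 60 and 120 min, as filled points with 95% Wilson intervals and, as open diamonds, without the chromosome 11 cluster. H4ac is highest at each time (39.7, 58.0 and 45.9%), and the p65 list of the other letter is at 1.05% for 60 min.

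The p50 subunit, the common partner of p65, was listed at a minority of p65 X regions. Its 4 lists of LPS-treated cells are all of 60 min, so no p50 list matches the 120 min p65 list in time. At least 2 of the 4 p50 lists of LPS-treated cells were touched by 9 of 204 regions at 0 min (4.41%, 2.34 to 8.17%), 56 of 474 at 60 min (11.8%, 9.21 to 15.0%) and 53 of 440 at 120 min (12.0%, 9.33 to 15.4%). The p50 lists are short, with 317 to 1292 regions up to 10 kb per LPS list, and a region of the 60 min median width would touch them from 0.00644 to 0.0279% of positions. At least 1 of the 3 unstimulated p50 lists was touched by 106 of 730 joined regions (14.5%), and at least 1 LPS list by 158 (21.6%). The unstimulated lists A, C and D were touched by 5.39, 5.39 and 1.96% of regions at 0 min. At 120 min it was 13.9, 7.27 and 4.09%. Without the cluster these were 2.69, 3.76 and 1.08% at 0 min and 6.12, 4.08 and 2.33% at 120 min. By pattern, outside the cluster, the share with at least 2 LPS p50 lists was 12.2% (8.13 to 17.9%) at 60 min alone, 11.2% (7.19 to 17.0%) at 60 and 120 min and 13.1% (7.84 to 21.2%) at 120 min alone. It was 4.35% (1.49 to 12.0%) for regions of all 3 times and 2.53% (0.697 to 8.77%) for 0 min alone. The 3 patterns gained after LPS had higher shares than these last 2, but their intervals overlap both of theirs, and the difference was not tested.

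**Figure D5:**
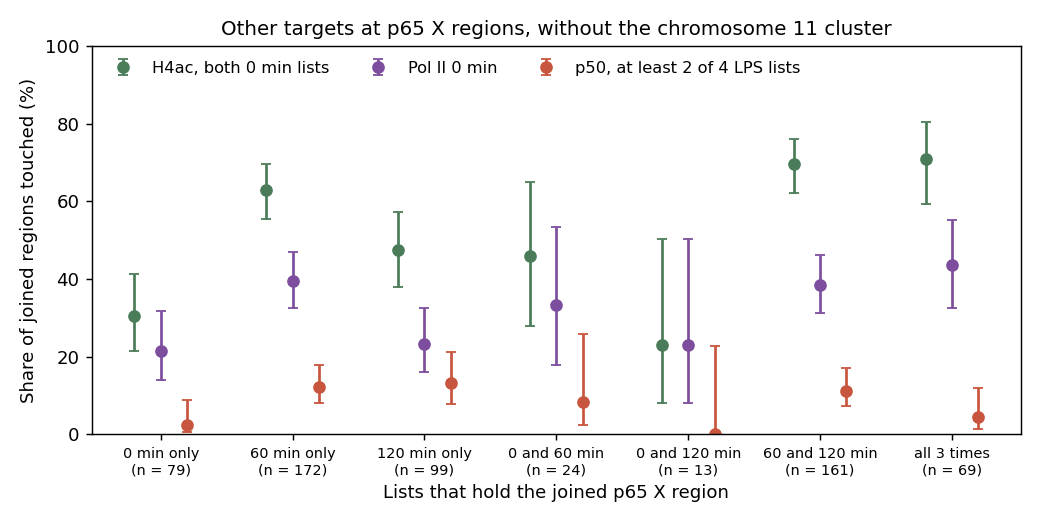
Share of joined p65 X regions (y axis, percent, with 95% Wilson intervals) that touched both unstimulated H4ac lists, the unstimulated Pol II list or at least 2 p50 lists of LPS-treated cells, by the lists that held the p65 X region (x axis), without the chromosome 11 cluster. The H4ac share runs from 71.0% for regions of all 3 times to 30.4% at 0 min alone among the groups of more than 24 regions.

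At least 3 of the 4 p50 lists of LPS-treated cells were touched by 48 of the 730 joined regions (6.58%, 5.00 to 8.61%). Of these, 4 lay in the chromosome 11 cluster, all of them listed at 120 min alone, and 44 outside it. No unstimulated p50 list was touched by 22, all outside the cluster. The regions described next were chosen after their values were seen, for their rank or their course over time. The highest-ranked outside the cluster was at chromosome 17, 35334771 to 35339660, which was not listed at 0 min, ranked 5 at 60 min (score 3.68) and 48 at 120 min (2.03). It touched 3 LPS and 0 unstimulated p50 lists, both H4ac lists at 0 and at 60 min, neither at 120 min, and Pol II at all 3 times. This region was thus highest at the earlier LPS time.

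Other regions with p50 listed at 60 min moved in opposite directions between the LPS times. One at chromosome 5, 91331671 to 91335890, ranked 59 at 60 min (score 2.06) and 380 at 120 min (0.200). A second on that chromosome, 92773861 to 92778520, ranked 126 at 60 min (1.33) and 16 at 120 min (2.85). Both touched no H4ac region up to 10 kb before LPS and touched both H4ac lists at 60 and 120 min. Within that width limit, acetylation was thus listed at these narrow regions together with p65 and not before it. The wider p65 region with the start of the second, 92773861 to 92805150, did touch both unstimulated H4ac lists. The region at chromosome 11, 83459681 to 83463380, stayed near the same rank (72, then 52) and touched all 4 LPS p50 lists. Those at chromosome 12, 56586811 to 56593930 (ranks 43 and 51), and chromosome 10, 77597791 to 77598130 (ranks 40 and 69), touched both H4ac lists at each of the 3 times.

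ATF3 is induced by LPS and binds near many inflammatory genes, and its lists come from 240 min of LPS, a time without a p65 library. The ATF3 list of letter A was touched by 8.33% of regions at 0 min (5.27 to 12.9%), 15.6% at 60 min (12.6 to 19.2%) and 21.1% at 120 min (17.6 to 25.2%). Without the cluster these were 5.91, 12.7 and 15.5%. The ATF3 lists of letters B and C had lower shares and did not follow the same course: B was touched by 4.41, 4.64 and 7.73% of regions at 0, 60 and 120 min, and C by 4.41, 4.01 and 3.41%. H3K27me3 is laid down by Polycomb repressive complexes. It was met at 4.90 to 11.4% of regions over its 5 lists and the 3 p65 times, with its regions limited to 100 kb. Of those lists, only the unstimulated and 120 min ones share a treatment with a p65 X list. Without the cluster the range was 3.76 to 8.16%. A region of the median width of each p65 list would touch the H3K27me3 lists from 1.85 to 3.58% of positions.

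Regions of 10 to 100 kb were nearly all from the LPS lists. There were 2 at 0 min, 40 at 60 min and 43 at 120 min. Joined over the lists they made 66, of which 17 were listed at 60 and 120 min, 22 at 60 min alone, 25 at 120 min alone and 2 at 0 min alone. Within this width class none was listed both before and after LPS, but the unstimulated list has 2 such regions in all. Of the LPS regions, 3 overlapped a region up to 10 kb of the unstimulated list, and overlap with its regions above 100 kb was not counted. Of the 17 regions of both LPS times, 16 touched both Pol II lists of 60 min (94.1%, 73.0 to 99.0%), 15 both H4ac lists of 60 min (88.2%, 65.7 to 96.7%) and 12 at least 2 LPS p50 lists (70.6%, 46.9 to 86.7%). The p50 share was 12 of 22 at 60 min alone (54.5%, 34.7 to 73.1%) and 5 of 25 at 120 min alone (interval 8.86 to 39.1%). A wide region has more room to touch another, so these shares cannot be set against those of the narrow regions.

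Among all regions wider than 10 kb, the best-scored of 60 min was at chromosome 14, 103445261 to 103459400 (score 2.23), which ranked 2 at 120 min (1.72) and touched no p50 list. The next 3 of 60 min were at chromosome 2, 164245941 to 164270820 (rank 2, then 28), chromosome 12, 112679831 to 112693380 (rank 3, then 13), and chromosome 9, 20818601 to 20837770 (rank 4, then 9). The last 2 touched 4 and 3 of the LPS p50 lists and no unstimulated one. At 120 min the best-scored was at chromosome 12, 27123001 to 27141410, which had ranked 40 at 60 min and touched no p50 list. The region at chromosome 5, 92773861 to 92805150, which holds the narrow region of that start named above, went from rank 135 at 60 min (score 0.195) to rank 4 at 120 min (1.26). Its narrow and its wide form thus both ranked higher at the later time.

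Above 10 kb the unstimulated list had fewer regions and a longer median width than the LPS lists. Regions above 1 Mb numbered 42, 190 and 220 at 0, 60 and 120 min. All regions above 10 kb together covered 538, 761 and 801 Mb, or 20.9, 29.6 and 31.2% of the span of the chromosomes, and their median width was 6956 kb at 0 min, 1427 kb at 60 min and 1269 kb at 120 min. The single widest region was shorter at 0 min (72.2 Mb) than at 60 and 120 min (133 Mb each). Above 100 kb the intersection over the union was 0.745 for 60 and 120 min, 0.365 for 0 and 60 min and 0.370 for 0 and 120 min. At this scale too the 2 LPS lists were closer to each other than to the unstimulated list.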

How the data were processed

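ChIP-seq lists of 35 libraries were used, 1 library per p65 X time. The authors deposited 1 headerless region list per library, giving coordinates, a score and a scale value. The score is the authors' own, as deposited, and ranked regions within a list only. Build mm9 is named in the submitters' processing notes. Aligner, caller and cutoffs: not given in the sources used here. Depth is unknown.

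Groups, times and letters came from the labels. The members and lists were chosen with earlier results of these data known. Regions up to 10 kb (H3K27me3: 100 kb) were merged within a list (leaving 204, 474 and 440) and joined across the p65 X lists (203, 468 and 437 listed at the 3 times), with an overlap of 1 bp. Named regions were the 5 with the best mean percent rank in each pattern, and regions of 10 to 100 kb among the 5 best-scored of those above 10 kb in a list; not all are printed. Position shares count the start positions at which a region of the stated width would touch a list. They are relative to the span from the first region start to the furthest region end of each chromosome, over all lists. Python 3.11.15, pandas 2.3.3, numpy 2.4.6 and matplotlib 3.10.9 were used, and the joining was tested on simulated lists. Genes of the planned lists, marker genes and sequences were not analysed here, because the tables at hand are of another build.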

Additional observations from a re-analysis of the deposited data

How the results depend on the processing

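With regions of every width, the lists held 782 regions at 60 min and 814 at 120 min, and of 461 joined regions 210 were gained and 48 lost at 60 min and 39 lost at 120 min. With at least 50% of the joined region covered, 37 were listed at all 3 times. With the better-scored 50% of each list, 191 were gained and 52 lost at 60 min, 174 gained and 52 lost at 120 min and 42 listed at all 3 times, from 375 joined regions. With lists of equal length (209), 144 and 147 were gained at 60 and 120 min and 46 were listed at all 3 times; without the chromosome 11 cluster as well, 127 and 127 were gained. A limit of 1 kb, or joining over gaps of up to 500 bp, kept all 5 counts within 1.5 times. With regions up to 1 kb on both lists, the shares at 0, 60 and 120 min were 5.64, 14.0 and 10.3% for H4ac, 21.03, 15.2 and 6.33% for Pol II, 2.05, 7.35 and 6.86% for p50, 4.62, 9.24 and 11.6% for ATF3 and, at 120 min, 7.92% for the other p65 list. With at least 50% of the p65 region covered, they were at 60 min 45.6% for H4ac, 6.33% for p50, 11.4% for ATF3 and 0 of 474 for the other p65 list, and at 120 min 35.5, 6.36, 15.7 and 9.32%. In the better-scored 50% of each p65 list, H4ac was at 47.6% at 0 min and 66.7% at 60 min, Pol II at 34.0% at 0 min and ATF3 at 11.1% at 60 min. Alternatives without the cluster and with Pol II regions up to 100 kb were chosen after seeing the data. Without the cluster, H4ac was at 62.5% at 60 min and 57.1% at 120 min, and at 120 min Pol II was at 21.6%, ATF3 at 15.5% and the other p65 list at 5.54%. With Pol II up to 100 kb, the shares were 35.9% at 60 min and 21.6% at 120 min. Leaving out a replicate could not be done with 1 library per time, and the gene window alternative was not run. No paired analysis was possible because each time has 1 library with the letter X, so the times share fewer than 2 letters.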

Other observations

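Outside chromosome 11, the most crowded 100 kb windows of p65 X regions lay on chromosomes X, 9 and 1, and their lists differed in direction over time. On chromosome X, 13 joined regions lay between 166410751 and 166446700, with 3 listed at 0 min, 8 at 60 min and 13 at 120 min. On chromosome 9, 11 lay between 3000501 and 3036520, with 6, 4 and 1. On chromosome 1, 5 lay between 90113851 and 90185540, with 0, 1 and 5. The chromosome X window held 5 of the 48 regions that touched at least 3 LPS p50 lists, and 3 of the 6 joined regions that touched the p65 list of letter A.

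The p65 X lists of 60 and 120 min each held 3 regions on chromosome Y, although the labels give female mice, and the 0 min list held none. Chromosome Y regions also stood in 22 of the other 32 lists.

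Outside the chromosome 11 cluster, the regions of both LPS times with the largest fall and rise in rank, chosen after their values were seen, both lacked p50. Over all joined regions, 158 of 730 (21.6%) touched at least 1 LPS p50 list. The region with the largest fall, at chromosome 8, 73046891 to 73047120, ranked 79 at 60 min and 445 at 120 min. That with the largest rise, at chromosome 7, 117987781 to 117987940, ranked 462 and then 55. Both touched both H4ac lists of 0 and of 60 min, and 1 of 2 at 120 min.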
